A study of Mus musculus with 32 samples.

Results

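The 9 genes described here encode transcription factors that set the identity of microglia, the resident macrophages of the central nervous system: Sall1, Sall3, Spi1, Irf8, Runx1, Mef2a, Mef2c, Bhlhe40 and Bhlhe41. They were found by symbol in each of the 3 deposited tables, which hold 74021 rows for LAG-3-sorted microglia, 74016 for microglia by genotype and stage and 74021 for lumbar spinal cord. All 9 had a row in every table and all 9 passed the filter on low counts in every table. The mice with disease carry SOD1G93A, a human mutant superoxide dismutase transgene that causes a motor neuron disease modelling amyotrophic lateral sclerosis. LAG-3 is an inhibitory receptor best known from T cells.

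On GRCm39 (GENCODE vM39 gene bounds) Sall1 (ENSMUSG00000031665) lies on the minus strand at chr8:89753863-89770823 and Sall3 (ENSMUSG00000024565) on chromosome 18. Spi1 (ENSMUSG00000002111) lies at chr2:90912562-90946101 and Irf8 (ENSMUSG00000041515) at chr8:121463096-121485659, both on the plus strand. Runx1 (ENSMUSG00000022952) lies at chr16:92398354-92623037, minus strand. Mef2a (ENSMUSG00000030557) lies at chr7:66880911-67022606, minus strand, and Mef2c (ENSMUSG00000005583) at chr13:83652064-83815555, plus strand. Bhlhe40 (ENSMUSG00000030103) lies at chr6:108636626-108644502, plus strand, and Bhlhe41 (ENSMUSG00000030256) at chr6:145803969-145811430, minus strand. Counts are summed over all transcripts of a gene, so exons of the whole gene body contribute.

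In the first experiment CD11b+/CD45int cells were sorted from lumbar spinal cord as 4 WT libraries and, from SOD1G93A mice at P140, as 5 libraries gated for little surface LAG-3 (LAG-3-low, here the low fraction) and 5 for much (LAG-3-high, the high fraction). WT mice lacked the SOD1 transgene, and their age at this sort is not given in the sources used here. In the second, microglia came from mice of genotype SOD1G93A/LAG-3+/+ or, without LAG-3, SOD1G93A/LAG-3-/- at P120 and P140, with 3 libraries in each of the 4 groups. In the last, lumbar spinal cord of both genotypes was sequenced at P140, with 3 libraries each. Every group of these 2 experiments therefore carried the SOD1 transgene, and LAG-3 was deleted in the whole mouse and not in microglia alone. The 2 fractions were split from sorted microglia of such mice, and same-numbered low and high libraries may come from the same mice: their listed sexes match for all 5 numbers, and the sources do not say. Nothing in the sources says that libraries of a group came from pooled or from single animals, so p-values measure the spread between these libraries.

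SALL1 is a zinc finger repressor that in the adult brain marks microglia among the immune cells and keeps them from taking on an inflammatory state, and SALL3 is its close relative. PU.1, the product of Spi1, and IRF8 are lineage factors of all macrophages that bind DNA together at composite sites. RUNX1 acts early in the making of microglia. MEF2A and MEF2C are MADS-box factors whose sites lie in microglial enhancers, and both are also made by neurons. BHLHE40 and BHLHE41 (DEC1 and DEC2) are basic helix-loop-helix repressors that bind E-boxes, dampen the circadian clock and support the self-renewal and lipid handling of tissue macrophages.

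Windows of 300 bases around annotated start sites, 250 before and 50 after, were read from RefSeq (GRCm38.p6). They were at hand for 6 of the 9 genes, with 12 windows in all. Spi1, Bhlhe40 and Sall3 are named without a window. Stretches of 3 of them are shown because they hold the letters read by factors of the same set. The first is an E-box, the motif of BHLHE40 and BHLHE41, before Bhlhe41 itself (minus strand, chr6:145865556-145865585). The second is an E-box before the distal start of Runx1 (minus strand, chr16:92826128-92826157). The last is 250 bases before Mef2a that end in a MEF2 motif across the start site (minus strand, chr7:67372851-67373100). Each runs 5′ to 3′ on the strand of its gene, and the capitals mark the motif.
Bhlhe41: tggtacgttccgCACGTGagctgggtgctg
Runx1: catcacttaagtCACGTGattggcaagagc
Mef2a: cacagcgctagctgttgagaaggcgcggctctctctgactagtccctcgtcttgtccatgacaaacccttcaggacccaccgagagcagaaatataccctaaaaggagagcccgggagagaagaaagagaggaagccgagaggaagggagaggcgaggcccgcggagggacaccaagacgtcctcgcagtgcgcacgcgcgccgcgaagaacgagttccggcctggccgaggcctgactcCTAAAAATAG
The E-box CACGTG, which reads the same on both strands, lay in these 2 of the 12 windows and in 7.15% of all 32851 windows of the table. The MEF2 letters CTANNNNTAG, also the same on both strands, lay in 1 window of the 12 and in 3.69% of all. GAGGAA or its complement TTCCTC, the core read by PU.1, lay in 4 of the 12, before Runx1, Mef2a and Mef2c, against 28.3% of all, and overlaps none of the capitals shown. TGTGGT or ACCACA, read by RUNX factors, lay in 1, the distal Runx1 window, against 16.8%. The IRF motif, GAAA and again GAAA after 2 unread bases, on either strand, lay in none of the 12, against 3.44%. A match of letters is no measured binding.

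Lag3 itself checked the labels. It lay between 0.508 and 9.99 CPM (counts relative to library size, TMM-scaled) in WT libraries, between 34.8 and 57.8 CPM in the low and between 146 and 195 CPM in the high fraction. In the stage table Lag3 lay between 53.4 and 62.9 CPM in LAG-3+/+ libraries at P120 and, lower, between 24.5 and 28.1 CPM at P140. In LAG-3-/- libraries it lay between 0.0239 and 0.462 CPM. In cord Lag3 had 43.4 to 74.5 CPM with LAG-3 and 5.50 to 5.72 CPM without it. Libraries totalled 9403475 to 49512632 counts. The 11 measured microglia markers (P2ry12, Tmem119 and others) were above 0 in every group of sorted cells, with sums of 19877 to 51773 CPM. Markers of other cells were not equal across the sort. The summed CPM of 13 neutrophil markers was 6292 to 70591 for WT, 23039 to 65789 for the low and 484 to 665 for the high fraction, where Elane and Mmp9 were at 0. Monocyte and dendritic cell markers (9 genes) summed to 22.1 to 2726, 1713 to 4443 and 7.51 to 16.7 CPM in the same order. Dividing-cell markers (10 genes) summed to 148 to 405, 183 to 784 and 128 to 234 CPM. In the stage table, 18896 to 20489 genes were detected in P140 LAG-3+/+ libraries against 24136 to 24942 at P120. P140 LAG-3-/- replicate 1 stood with the former at 20260 genes, its 2 companions at 23459 and 23896.

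The first comparison asks how microglia of diseased mice differ from WT microglia, in the cells with low and with high LAG-3. Sall1 and Sall3 were lower in both fractions, Bhlhe40 was higher in both, and Irf8 was higher in the high fraction. Spi1, Mef2a and Mef2c did not pass the test in either. A gene was called at an adjusted p under 0.1 and a fold change over 1 on the log2 scale (edgeR quasi-likelihood test, Benjamini-Hochberg adjustment over 16508 genes). In the low fraction against WT, 1 of the 9 genes was called higher and 2 lower, where over all genes the shares were 10.9% higher and 11% lower. In the high fraction 2 were called higher and 2 lower, against 12.1% and 14.9% of all genes. The groups did not overlap for 4 of the 9 genes in each fraction (Sall1, Sall3, Irf8 and Bhlhe40), against 15.7% of all genes in the low and 20.9% in the high fraction.

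Sall1 had 467, 282, 318 and 390.4 CPM in the WT libraries. In low-fraction libraries it had 60.9, 77.8, 102, 120.4 and 151 CPM, and in high-fraction libraries 82.3, 59.9, 63.0, 80.0 and 109.5 CPM. Every WT library lay above every SOD1G93A library, and the ranges of the 2 SOD1G93A fractions overlapped. The log2 fold change against WT was -1.83 (SE 0.27, adjusted p = 0.000818 by edgeR) in the low fraction and -2.21 (SE 0.28, adjusted p = 0.000109) in the high fraction. Sall3 ran at lower counts in the same direction. Its WT values were 113, 59.3, 84.1 and 62.1 CPM, its low-fraction values 33.3, 24.5, 45.6, 32.8 and 35.7 CPM, and its high-fraction values 22.0, 32.1, 24.4, 30.0 and 38.3 CPM. The WT libraries again lay above all others. The log2 fold changes were -1.21 (SE 0.29, adjusted p = 0.0116 by edgeR) and -1.44 (SE 0.29, adjusted p = 0.00335). Without WT replicate 1 the fall of Sall3 in the low fraction was -0.94, short of the fold minimum. The ranges of neutrophil marker RNA overlapped between WT and the low fraction, and lay lowest in the high fraction.

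Bhlhe40 was listed at 0 counts in WT replicates 1, 3 and 4 and at 99 counts, or 8.63 CPM, in WT replicate 2. In low-fraction libraries it had 136, 183, 128, 95.3 and 129.7 CPM and in high-fraction libraries 236, 319, 304, 253 and 342 CPM. The 3 groups did not overlap, with the high-fraction libraries on top. The mean level was 62.3-fold that of WT in the low fraction and 135-fold in the high fraction. The fitted log2 fold changes were 6.03 (SE 1.34, adjusted p = 0.00891 by edgeR) and 7.14 (SE 1.41, adjusted p = 0.00327), and they rest on 1 WT library. With the 3 WT libraries at 0 alone and a floor of 3 counts per library, at most 0.190 CPM, Bhlhe40 was at least 706-fold higher in the low fraction and at least 1527-fold higher in the high fraction. WT replicate 2, the library with Bhlhe40 reads, also held the most monocyte and dendritic cell marker RNA of the 4 WT libraries, 2726 CPM, and the fewest counts. WT replicate 4, at 0 for Bhlhe40, held the most neutrophil marker RNA of the 4, 70591 CPM against 36025 CPM in replicate 2. High-fraction libraries, where Bhlhe40 was highest, had the least neutrophil and monocyte marker RNA of the 3 groups. The part of other cells in these values was not tested.

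Irf8 had 234, 474, 455 and 228 CPM in WT, 608, 563, 505, 528 and 645 CPM in the low fraction and 1013, 950.3, 909.8, 914 and 928 CPM in high-fraction libraries. The 3 groups were in the order WT, low fraction, high fraction with no overlap. The log2 fold change against WT was 1.44 (SE 0.22, adjusted p = 0.000533 by edgeR) in the high fraction and was called, a call lost at 0.36 with offsets for transcript length and GC content. Those offsets moved the median of all genes to -0.65, and relative to that median Irf8 stood at 1.01. In the low fraction, without offsets, the log2 fold change of Irf8 was 0.71 (SE 0.22, adjusted p = 0.0379 by edgeR), under the fold minimum. Its paralogue Irf7, a factor of interferon responses, was called higher in both fractions, at 3.15 and 3.29 on the log2 scale (adjusted p = 0.0513 and 0.0384 by edgeR).

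Bhlhe41, the paralogue of Bhlhe40, was called in neither fraction. Its ranges were 55.3 to 145 CPM in WT, 116 to 228 CPM in the low fraction and 131 to 186 CPM in high-fraction libraries, and WT replicate 4 lay within both other groups. The log2 fold changes of 0.72 (SE 0.28) and 0.76 (SE 0.28) had edgeR adjusted p of 0.0903 and 0.0664 and stayed under the fold minimum. Without WT replicate 4 Bhlhe41 was called higher in the high fraction, at 1.03. Runx1 had 70.3 ± 26.2 CPM in WT (SD, n = 4), 86.5 ± 10.6 CPM in the low fraction (SD, n = 5) and 111 ± 7.99 CPM in the high fraction (SD, n = 5). It passed the adjusted p alone in the latter, with a log2 fold change of 0.66 (SE 0.24, adjusted p = 0.0606 by edgeR). With the fold minimum left aside, 5 of the 9 genes passed in the low fraction and 6 in the high fraction, where 24.9% and 30.3% of all genes did.

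Spi1 was at 277 ± 117 CPM in WT, 328 ± 42.2 CPM in the low fraction and 299.9 ± 12.9 CPM in the high fraction. Mef2a was at 384 ± 134, 357 ± 48.2 and 362 ± 29.7 CPM, and Mef2c at 406 ± 62.4, 319.7 ± 50.1 and 374 ± 34.8 CPM (SD, n = 4, 5 and 5). The 3 genes' ranges overlapped between all groups. Their log2 fold changes against WT lay between -0.35 and 0.24, with standard errors of 0.16 to 0.24. WT libraries spread more than the others for Spi1 and Mef2a.

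**Figure D1:**
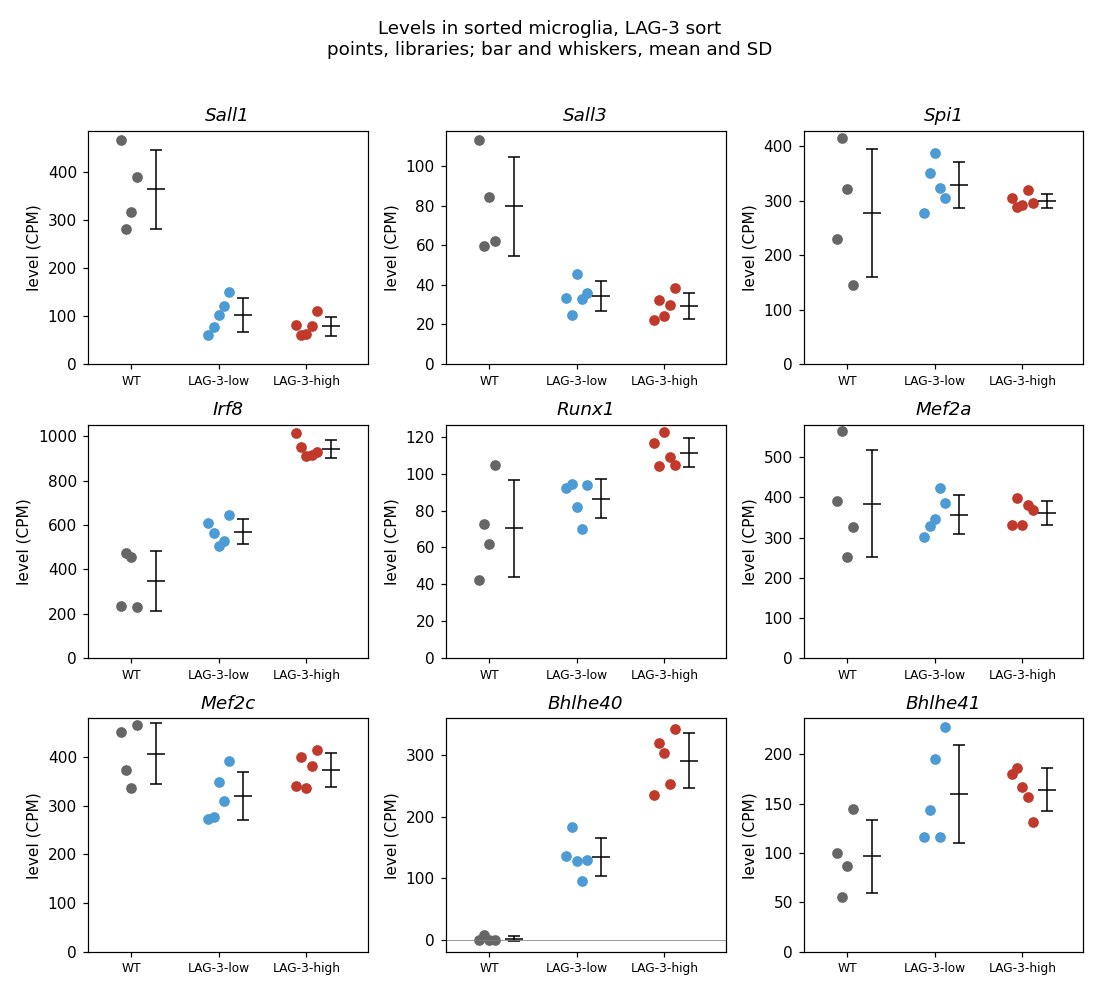
Levels of the 9 genes in CPM (vertical axes, linear) in WT microglia and in the low and high LAG-3 fractions; each point is a library, the bar and whiskers are mean and SD. The WT libraries lie above all others for Sall1 and Sall3, at or near 0 for Bhlhe40, and below both other groups for Irf8, while Spi1, Mef2a and Mef2c overlap throughout.

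The order of the genes by level per kilobase of transcript changed with the group. In WT microglia Spi1 stood first at 136 ± 57.4 CPM per kb. Mef2a (69.6 ± 24.2), Irf8 (68.6 ± 26.6), Sall1 (65.1 ± 14.6) and Mef2c (57.0 ± 8.75 CPM per kb) followed within each other's spread. Sall3, Bhlhe41 and Runx1 lay at 18.9 ± 5.93, 15.8 ± 6.04 and 12 ± 4.47 CPM per kb, also within their spread, and Bhlhe40 was last at 0.460 ± 0.919 CPM per kb. In the high fraction Irf8 stood first at 186 ± 8.33 CPM per kb, above Spi1 at 147 ± 6.33. Bhlhe40 had moved up to 62.0 ± 9.52 CPM per kb, level with Mef2a at 65.5 ± 5.37, and Sall1 had moved down to 14.1 ± 3.54 CPM per kb, below Runx1 at 19.0 ± 1.36.

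Comparing the high with the low fraction, none of the 9 genes was called, where 3.49% of all genes were. At an unadjusted p under 0.05 there was 1, Irf8, and DESeq2 called none. The groups did not overlap for 3 of the 9, Irf8, Runx1 and Bhlhe40, all higher in the high fraction, where 15.5% of all genes did not overlap in either direction. Irf8 passed the adjusted p under the fold minimum with a log2 fold change of 0.73 (SE 0.20, adjusted p = 0.0738 by edgeR), the 1 gene of the 9 to do so against 4.39% of all genes. Bhlhe40 stood 2.16-fold higher in the high fraction, with a fitted log2 fold change of 1.11. Its standard error of 0.97 came from the model shared with the WT libraries, and the edgeR adjusted p was 0.797. Without WT replicate 2 the log2 fold change was 1.12 and the adjusted p 0.00727, and the gene was then called. The log2 fold change was -0.38 (SE 0.26, adjusted p = 0.677) for Sall1 and -0.23 (SE 0.27, adjusted p = 0.894) for Sall3 in the same edgeR fit. Neutrophil and monocyte marker RNA was lower in every library of the high than of the low fraction, and its part in these values was not tested.

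Other genes around these factors were measured in the same fits. Of 14 homeostatic microglia genes tested, 10 were called lower and none higher in each SOD1G93A fraction, with median log2 fold changes of -1.36 and -1.63 where the median of all genes was 0.04 and -0.08. P2ry12, the ADP receptor of resting microglia, was at -2.06 and -2.94 on that scale (edgeR adjusted p = 0.000174 and 3.51e-06). Of 15 disease-associated microglia genes, 11 were called higher in the low fraction and 13 in the high fraction and none lower. Spp1, which encodes the secreted phosphoprotein osteopontin, rose by 5.67 and 8.58 (edgeR adjusted p = 6.01e-05 and 1.92e-06). Among 33 other macrophage transcription factors and cofactors, 10 were called higher and 3 lower in the low fraction and 14 higher and 4 lower in the high fraction. Hif1a, the oxygen-regulated factor, had the smallest adjusted p, at 1.96 and 3.16 (edgeR adjusted p = 0.00014 and 1.72e-06), and Maf, a factor of resident macrophages, fell by 1.59 and 1.84 (adjusted p = 0.00244 and 0.000506). Of 10 genes known to be driven by PU.1, 2 were called higher and 2 lower in the low fraction and 3 higher and 1 lower in the high fraction. Of 13 E-box clock genes tested, 1 came out higher in the low and 1 higher and 1 lower in the high fraction. Of 6 genes of the CSF1, IL-34 and TGF-beta signals that act upstream, Csf1 alone was called, higher in both fractions. Of 10 paralogues tested, 2 were called higher in the low fraction and 1 in the high fraction.

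Between the 2 SOD1G93A fractions, 9 of the 15 disease-associated genes were called higher in the high fraction, 3 of the 14 homeostatic genes lower, and 2 of the 33 other factors higher and 1 lower. Hif1a had the smallest adjusted p of these factors, at 1.20 (edgeR adjusted p = 0.00462). Klf2, a factor of quiescent blood cells, was at -3.20 (adjusted p = 0.0107), and Runx3, the paralogue of Runx1 in lymphoid and myeloid blood cells, at -5.20 (adjusted p = 0.0171). These were lower in the fraction that also had less neutrophil and monocyte marker RNA, whose part was not tested.

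The second experiment asks how the factors move from P120 to P140 when LAG-3 is present, and whether they do so without it. In LAG-3+/+ microglia 6 of the 9 genes were called lower at P140 and 1 higher, where 15.5% of all 18669 genes tested were called lower and 11.9% higher (edgeR adjusted p under 0.1, no fold minimum). The groups did not overlap for 8 of the 9 genes, against 42.2% of all genes. Sall1, Sall3, Runx1, Mef2a, Mef2c and Bhlhe41 were lower and Spi1 higher. The median over all genes was -0.22 on the log2 scale.

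Sall1 went from 158, 189.9 and 171 CPM at P120 to 58.4, 53.2 and 46.6 CPM at P140, a log2 fold change of -1.71 (SE 0.32, adjusted p = 0.00751 by edgeR). Mef2a went from 416, 449 and 493.4 CPM to 150.5, 164 and 70.8 CPM, a log2 fold change of -1.82 (SE 0.37, adjusted p = 0.00976). Bhlhe41 went from 214, 166 and 198 CPM to 73.9, 61.8 and 54.5 CPM, a log2 fold change of -1.60 (SE 0.29, adjusted p = 0.00683). In each case the P140 libraries all lay below the lowest P120 library. Runx1 went from 107, 155 and 78.3 CPM to 40.3, 32.1 and 45.0 CPM (log2 fold change -1.53, SE 0.39, edgeR adjusted p = 0.0210). Sall3 went from 51.3, 55.7 and 50.7 CPM to 16.9, 21.6 and 33.2 CPM (-1.14, SE 0.29, adjusted p = 0.0196). Mef2c fell less, from 402, 487 and 395 CPM to 242, 200.01 and 314 CPM (-0.76, SE 0.19, adjusted p = 0.0206).

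Spi1 moved the other way. It had 247, 233 and 224 CPM at P120 and 449.8, 521 and 561 CPM at P140, a log2 fold change of 1.12 (SE 0.25, adjusted p = 0.0123 by edgeR). Irf8 had 740.1, 749 and 693 CPM at P120 and 702, 431 and 600.4 CPM at P140, overlapping groups with a log2 fold change of -0.33 (SE 0.19, adjusted p = 0.256). Bhlhe40 had 112, 89.9 and 109 CPM and then 219, 122 and 169.8 CPM, so that every P140 library was higher, with a log2 fold change of 0.71 (SE 0.59, adjusted p = 0.436). Without P120 LAG-3-/- replicate 2, which shares the fit, Bhlhe40 kept 0.71 and was called at an edgeR adjusted p of 0.0979. Border macrophage markers (7 genes) moved with the stage, from sums of 2.53 to 18.5 CPM at P120 to 111 to 143 CPM at P140. Lymphocyte markers (13 genes) went from 27.0 to 33.2 CPM to 37.7 to 57.2 CPM. The part of these markers was not tested.

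Transcript length and genes detected moved with these changes. Among genes with a canonical transcript of 4000 bases or more, the median log2 fold change from P120 to P140 was -1.03 and 33.9% were called lower, against a median of 0.25 and 5.28% called lower under 2000 bases. Spi1, the gene that rose, has the shortest canonical transcript of the 9 at 2034 bases, and the other 8 have 4214 to 7125 bases. With offsets for length and GC content in the edgeR fit, Spi1 stayed higher at 1.44 (adjusted p = 0.00829). The 6 falls were no longer called, with log2 fold changes of -0.40 for Sall1, 0.31 for Sall3, -0.11 for Runx1, -0.58 for Mef2a, 0.58 for Mef2c and -0.12 for Bhlhe41. Irf8 at 0.87 (adjusted p = 0.0121) and Bhlhe40 at 1.83 (adjusted p = 0.0586) were then called higher. These offsets also moved the median of all genes to 0.38. The calls were made against no change and not against this median. Relative to it Mef2a stood at -0.96, Sall1 at -0.78, Bhlhe41 and Runx1 at -0.49, Sall3 at -0.07, Mef2c at 0.20, Irf8 at 0.49, Spi1 at 1.06 and Bhlhe40 at 1.45.

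**Figure D2:**
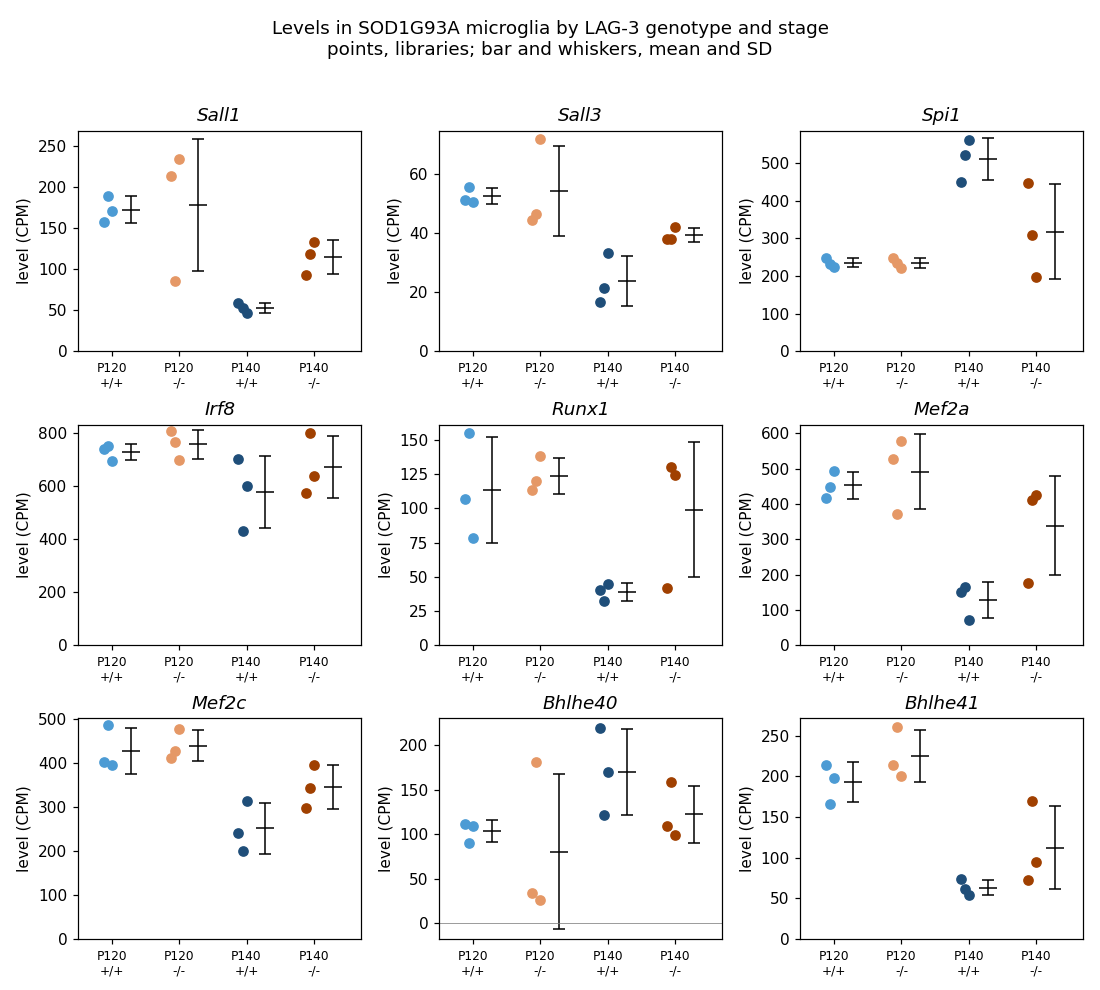
Levels of the 9 genes in CPM (vertical axes, linear) in SOD1G93A microglia at P120 and P140 with LAG-3 (+/+) and without it (-/-); each point is a library, the bar and whiskers are mean and SD, n = 3. At P140 the +/+ libraries lie below the P120 +/+ libraries for 6 genes and above them for Spi1 and Bhlhe40, and 1 P140 -/- library lies apart from the other two for Runx1 and Mef2a.

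The same offsets bear on the comparisons with WT. There short transcripts were lower and long ones higher, with medians of -0.42 under 2000 bases and 0.26 at 4000 bases or more in the low fraction, and -0.59 and 0.19 in the high fraction. With offsets the median of all genes moved to -0.70 and -0.65. Sall1 was then at -3.24 and -3.60, Sall3 at -2.97 and -3.22 and Bhlhe40 at 5.41 and 6.55, all called as before, and Mef2c was called lower in the low fraction, at -1.23. Direction and adjusted p were taken from no change and not from the moved median. In the low fraction 4 genes turned direction on that scale, Spi1 to -0.72 (edgeR adjusted p = 0.00208), Runx1 to -0.85 (adjusted p = 0.0674), Irf8 to -0.39 (adjusted p = 0.0579) and Bhlhe41 to -0.51 (adjusted p = 0.358). In the high fraction Spi1 turned to -0.79 (adjusted p = 0.00123 by edgeR), Runx1 and Bhlhe41 to -0.35 (adjusted p = 0.461 and 0.542), and Irf8 was at 0.36 (adjusted p = 0.0845), so that its call was lost. Relative to the moved median Irf8 was at 0.31 and 1.01, Spi1 at -0.02 and -0.14, Mef2a at -0.27 and -0.20, Mef2c at -0.53 and -0.24, Runx1 at -0.15 and 0.30 and Bhlhe41 at 0.19 and 0.29. Between the 2 SOD1G93A fractions Irf8 stayed at 0.76 (adjusted p = 0.00677).

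In LAG-3-/- microglia none of the 9 genes was called between P120 and P140, where 0% of all genes were. At an unadjusted p under 0.05 there was 1 of the 9, Bhlhe41, among 1658 genes in all, and DESeq2 called that gene. Bhlhe41 had 214, 261 and 200.1 CPM at P120 and 72.4, 169.7 and 94.8 CPM at P140, groups that did not overlap, with a log2 fold change of -1.003 (SE 0.29, adjusted p = 0.475 by edgeR). The groups also did not overlap for Sall3 and Mef2c, both lower at P140, which makes 3 of the 9 genes against 14.8% of all genes. Dividing-cell markers moved with the stage here, from sums of 157 to 229.6 CPM at P120 to 463 to 711 CPM at P140. Border macrophage markers went from 0.581 to 65.1 CPM to 44.9 to 120.4 CPM. Lymphocyte markers went from 24.6 to 30.1 CPM to 31.4 to 48.1 CPM. The part of any of these was not tested. Sall1 had 214, 85.7 and 235 CPM and then 93.2, 119 and 133 CPM, with P120 replicate 2 below all of the P140 libraries. That library was also the one with the most Bhlhe40, at 181 CPM against 34.4 and 26.1 CPM in the other P120 LAG-3-/- libraries. The 8 genes other than Bhlhe41 had log2 fold changes between -0.63 and 0.61.

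Between genotypes at P120 none of the 9 genes was called, where 0.0107% of all genes were called. No gene of the 9 had an unadjusted p under 0.05, and DESeq2 called none. The log2 fold changes of LAG-3-/- against LAG-3+/+ microglia lay between -0.37 for Bhlhe40 (SE 0.59) and 0.22 for Bhlhe41 (SE 0.28), and the groups overlapped for all 9. Neutrophil markers summed to 511 to 633 CPM without LAG-3 against 2228 to 3117 CPM with it. Monocyte and dendritic cell markers summed to 4.35 to 11.6 against 84.5 to 311 CPM, and dividing-cell markers to 157 to 229.6 against 285 to 495 CPM. Neuron markers (9 genes) summed to 0 to 3.63 against 6.90 to 12.8 CPM. Border macrophage, lymphocyte and astrocyte sums overlapped. The part of other cells was not tested. At P140, 3 of the 9 were called higher in LAG-3-/- microglia and none lower, where 7.22% of all genes were called higher and 3% lower. Mef2a had 177, 411 and 426 CPM against 150.5, 164 and 70.8 CPM with LAG-3, a log2 fold change of 1.40 (SE 0.37, adjusted p = 0.0598 by edgeR). Runx1 had 42.0, 131 and 125 CPM against 40.3, 32.1 and 45.0 CPM (1.34, SE 0.39, adjusted p = 0.0749). Sall1 had 93.2, 119 and 133 CPM against 58.4, 53.2 and 46.6 CPM (1.12, SE 0.32, adjusted p = 0.0705). LAG-3-/- replicate 1, the library with few detected genes, was the lowest of its group for all 3 and lay within the LAG-3+/+ range for Runx1.

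Spi1 had 447, 308 and 196 CPM without LAG-3 and 449.8, 521 and 561 CPM with it, groups that did not overlap, with a log2 fold change of -0.69 (SE 0.25, adjusted p = 0.125 by edgeR). Sall3 had 38.1, 38.1 and 42.1 CPM against 16.9, 21.6 and 33.2 CPM, also without overlap (0.72, SE 0.28, adjusted p = 0.153). With Sall1 and Mef2a this made 4 of the 9 genes without overlap, against 21.1% of all genes. Bhlhe41 was at 0.82 (SE 0.28, adjusted p = 0.115), Mef2c at 0.46 (SE 0.19, adjusted p = 0.180), Irf8 at 0.22 (SE 0.19, adjusted p = 0.543) and Bhlhe40 at -0.47 (SE 0.59, adjusted p = 0.681). Bhlhe40 and Bhlhe41 share chromosome 6 with Lag3, at 16.2 and 20.9 Mb from it, and neither was called between genotypes at P120 or P140.

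The 3 calls at P140 did not hold in every setting. They were lost with only the groups compared, and the number of calls ran from 0 to 6 as single libraries were left out (6 without LAG-3-/- replicate 1, 0 without LAG-3-/- replicate 2 or 3 or LAG-3+/+ replicate 2). Over the 12 fits that each left out 1 library, the call was lost in 10 for Runx1, in 8 for Sall1 and in 4 for Mef2a. With offsets for length and GC content Mef2a was at 0.39, Runx1 at 0.18 and Sall1 at 0.17, none called, and Irf8 was called lower at -0.65 (edgeR adjusted p = 0.0985), beside a median of all genes at -0.26. Genes of 4000 bases or more had a median of 0.77 in this comparison and those under 2000 bases -0.21. Whether the change from P120 to P140 differed between genotypes was tested by the interaction term, which called none of the 9, where 0.171% of all genes were called. At an unadjusted p under 0.05 there were 3 (Sall1 at 1.08, SE 0.44; Runx1 at 1.21, SE 0.54; Mef2a at 1.28, SE 0.51), and DESeq2 called none. Without LAG-3-/- P140 replicate 1 the interaction was called for 3 genes, Runx1 and Mef2a upwards and Spi1 downwards.

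The lists around the factors were counted in these fits as well, without the offsets for length and GC content. Among all genes of 4000 bases or more, 33.9% were called lower with stage in LAG-3+/+ microglia and 16.9% higher without LAG-3 at P140. The part of transcript length in the list values was not tested. From P120 to P140 in LAG-3+/+ microglia, 5 of 6 upstream signal genes were called lower and 1 higher, with a median of -2.01. The receptors Csf1r, Tgfbr2 and Tgfbr1 were at -1.84, -2.25 and -2.05 (edgeR adjusted p = 0.00552, 0.00562 and 0.00798). At P140 they were higher without LAG-3, at 1.54, 1.80 and 1.56 (edgeR adjusted p = 0.0282, 0.0311 and 0.0521), 3 of the 6 being called higher and none lower. The 2 comparisons share the 3 P140 LAG-3+/+ libraries. Of 31 other macrophage factors 11 were called lower and 4 higher with stage, among them Cebpa at -2.82 and Stat3 at -2.38, and 5 were higher and 1 lower without LAG-3 at P140. Of 14 homeostatic genes 4 were called higher and 2 lower with stage, and 2 were higher and none lower without LAG-3. Of 15 disease-associated genes 9 were higher and 1 lower with stage, and 1 was higher and 1 lower without LAG-3. Of 10 PU.1 target genes 5 were higher and 2 lower with stage. Cd68, a lysosomal glycoprotein, was at 1.47 and Itgam, the integrin CD11b, at -1.62 (edgeR adjusted p = 0.00636 and 0.00547). Without LAG-3 at P140, 2 of these 10 were higher and 1 lower. Of 13 E-box clock genes none was higher and 2 were lower with stage, Tef and Clock, and none was called between genotypes at P140. Of 11 paralogues 2 were higher and 2 lower with stage, Mef2d at -2.29 (adjusted p = 0.0212 by edgeR), and Mef2d alone was called without LAG-3, at 2.003 (adjusted p = 0.0740). In LAG-3-/- microglia with stage, between genotypes at P120 and for the interaction, no gene of these lists was called.

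**Figure D3:**
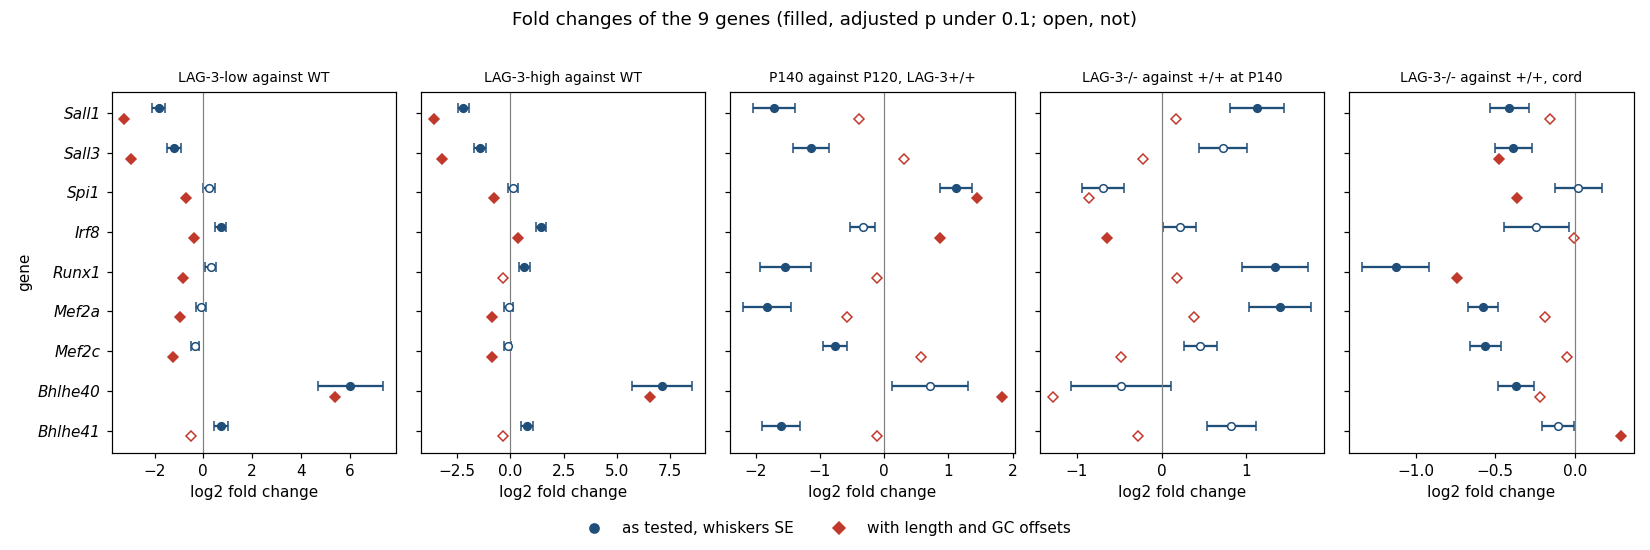
Log2 fold changes (horizontal axes) of the 9 genes in 5 comparisons, as tested (circles, whiskers are SE) and with offsets for transcript length and GC content (diamonds); filled symbols have an adjusted p under 0.1. Sall1, Sall3 and Bhlhe40 keep side and call against WT, whereas 6 falls from P120 to P140 and the 3 rises without LAG-3 at P140 lose their call with the offsets. The offsets also moved the median of all genes, and calls are against no change.

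The last experiment asks what the loss of LAG-3 does to the whole lumbar cord at P140. Cord holds many cell types whose shares of these reads were not measured, and fewer cells of a type cannot be told apart from less RNA per cell in bulk tissue. In LAG-3-/- cord 1 of the 9 genes, Runx1, was called lower and none higher, where 3.15% of the 17702 genes tested were called lower (adjusted p under 0.1 and a log2 fold change over 1). At an adjusted p under 0.1 without the fold minimum 6 of the 9 were lower, against 23.9% of all genes, and none higher, against 23.1%. Runx1 had 14.6, 8.04 and 10.7 CPM in LAG-3+/+ and 5.38, 4.85 and 5.10 CPM in LAG-3-/- libraries, from 94 to 390 counts per library. Its log2 fold change was -1.12 (SE 0.21, adjusted p = 0.00201 by edgeR) and, without LAG-3+/+ replicate 1, -0.88, under the fold minimum. Every LAG-3-/- library lay below every LAG-3+/+ library.

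Mef2a had 104, 96.7 and 102 CPM with LAG-3 and 65.2, 70.4 and 67.5 CPM without it, a log2 fold change of -0.58 (SE 0.10, adjusted p = 0.00104 by edgeR). Mef2c had 45.5, 42.3 and 46.3 CPM and 28.9, 31.1 and 30.7 CPM (-0.56, SE 0.10, adjusted p = 0.00140). The pair fell side by side, and Mef2a kept 74.5% of their summed CPM per kb with LAG-3 and 74.3% without it. Sall1 at -0.41 (SE 0.12, adjusted p = 0.0206), Sall3 at -0.39 (SE 0.12, adjusted p = 0.0244) and Bhlhe40 at -0.37 (SE 0.11, adjusted p = 0.0250) were lower by less in the same edgeR fit, again with no overlap between the genotypes. In all 6 of the 9 genes did not overlap, against 51.6% of all genes. Spi1 had 19.5, 14.6 and 17.4 CPM against 19.9, 14.8 and 17.7 CPM, a log2 fold change of 0.02 (SE 0.15). Irf8 was at -0.24 (SE 0.20) and Bhlhe41 at -0.11 (SE 0.10), with overlapping groups.

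Markers of several cell types differed between these cords. The 8 oligodendrocyte lineage markers summed to 23862 to 33295 CPM without LAG-3 and 16887 to 18433 CPM with it, the 6 astrocyte markers to 7582 to 12100 against 12945 to 14787 CPM, and the 11 microglia markers to 1138 to 1611 against 1480 to 1923 CPM. The microglia markers had a median log2 fold change of -0.17. Relative to it Runx1 stood at -0.95, Mef2a at -0.40, Mef2c at -0.39, Sall1 at -0.24, Irf8 at -0.07 and Spi1 at 0.19. Genes of 4000 bases or more had a median of -0.32 and those under 2000 bases 0.45. With offsets for length and GC content Runx1 was at -0.74 (edgeR adjusted p = 0.0348) and Sall3 at -0.48 (adjusted p = 0.00943). The other 4 of the 6 lower genes no longer passed, with Mef2a at -0.19 (edgeR adjusted p = 0.159), Mef2c at -0.05 (0.736), Sall1 at -0.16 (0.405) and Bhlhe40 at -0.22 (0.206). A pair of genes turned direction and then passed the adjusted p, Spi1 at -0.37 (0.0923) and Bhlhe41 at 0.29 (0.0881). The part of cell composition in these values was not tested.

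**Figure D4:**
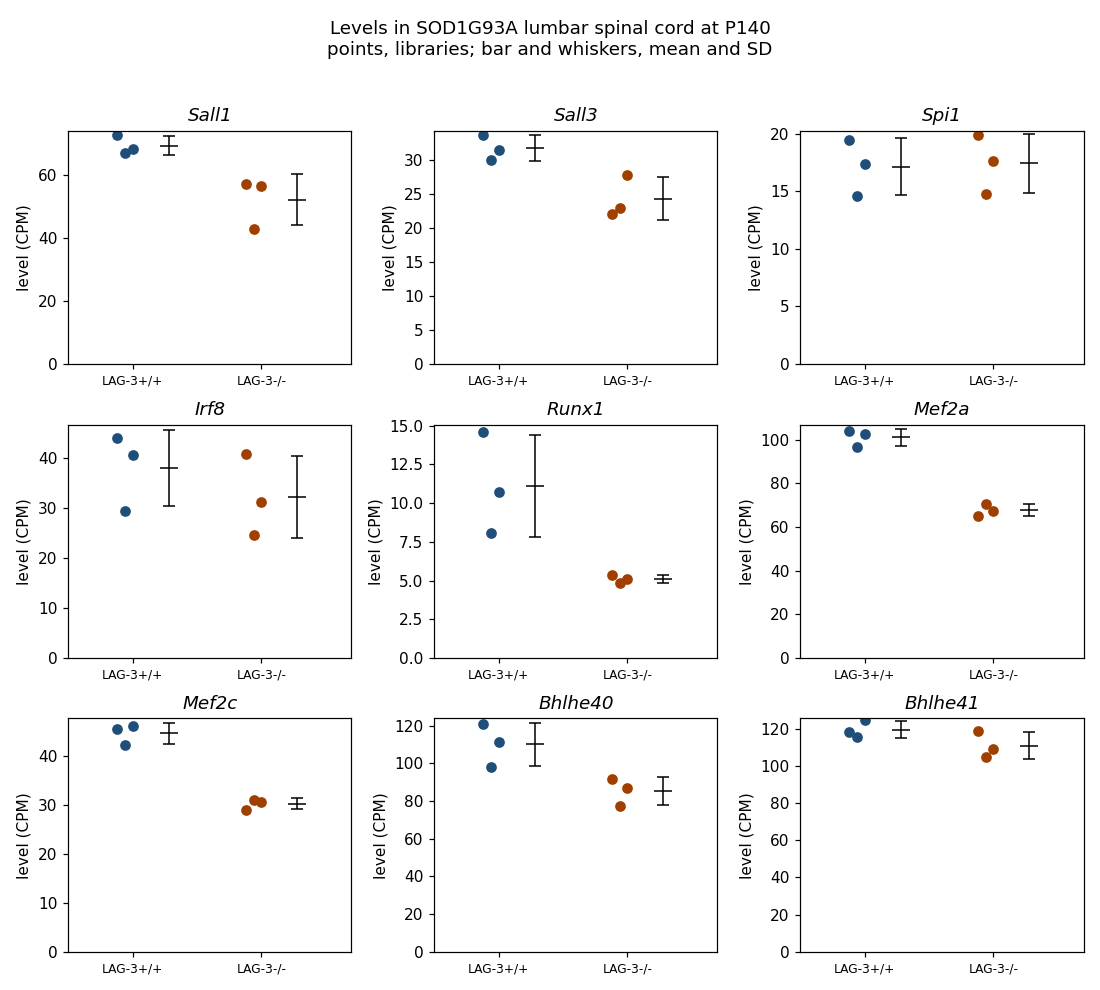
Levels of the 9 genes in CPM (vertical axes, linear) in lumbar cord of SOD1G93A mice with and without LAG-3 at P140; each point is a library, the bar and whiskers are mean and SD, n = 3. The LAG-3-/- libraries lie below all LAG-3+/+ libraries for Sall1, Sall3, Runx1, Mef2a, Mef2c and Bhlhe40 and overlap with them for Spi1, Irf8 and Bhlhe41.

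Of the lists, 17 of 32 other macrophage factors passed the adjusted p as lower in LAG-3-/- cord and 2 as higher, led by Hif1a at -0.78 and Smad4, the shared mediator of TGF-beta signals, at -0.59 (edgeR adjusted p = 0.00072 and 0.00134). Over all genes 23.9% passed as lower and 23.1% as higher. The list values are without the offsets for length and GC content, and the part of transcript length in them was not tested. Of 7 upstream signal genes 3 were lower, Tgfbr2 at -0.67, Tgfbr1 at -0.82 and Csf1 at -0.54, and none higher. Of 15 disease-associated genes 8 were lower and none higher, of 10 PU.1 target genes 4 were lower and none higher, of 14 homeostatic genes 4 were lower and 3 higher, of 14 clock genes 3 were lower and 2 higher, and of 11 paralogues 3 were lower and 1 higher. Their median log2 fold changes lay between -0.42 and -0.04, beside 0.00 for all genes. In cord the order of the 9 genes per kilobase was led by Bhlhe40 at 23.5 ± 2.44 CPM per kb with LAG-3, then Bhlhe41 at 19.4 ± 0.755 and Mef2a at 18.3 ± 0.702. Spi1 at 8.44 ± 1.20, Sall3 at 7.52 ± 0.446 and Irf8 at 7.50 ± 1.51 CPM per kb did not differ beyond their spread, and Runx1 was last at 1.898 ± 0.562 CPM per kb (SD, n = 3).

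The 2 repressors of the DEC pair shared their RNA differently in each group, counted per kilobase of transcript. Bhlhe40 made up 4.24 ± 8.48% of the pair in WT (SD, n = 4), 52.8 ± 8.65% in the low fraction and 69.6 ± 5.13% in the high fraction (SD, n = 5). In the stage table it made up 41.4 ± 0.638% at P120 and 77.3 ± 4.52% at P140 with LAG-3, and 26.5 ± 18.3% and 59.8 ± 5.83% without it (SD, n = 3). The ranges at P120 and P140 did not overlap in either genotype. Sall1 made up 77.6 ± 3.74% of the SALL pair in WT, 68.2 ± 7.60% in the low fraction and 66.7 ± 5.52% in the high fraction. These are levels over transcripts of unlike length and GC content, and the tables were scaled apart.

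**Figure D5:**
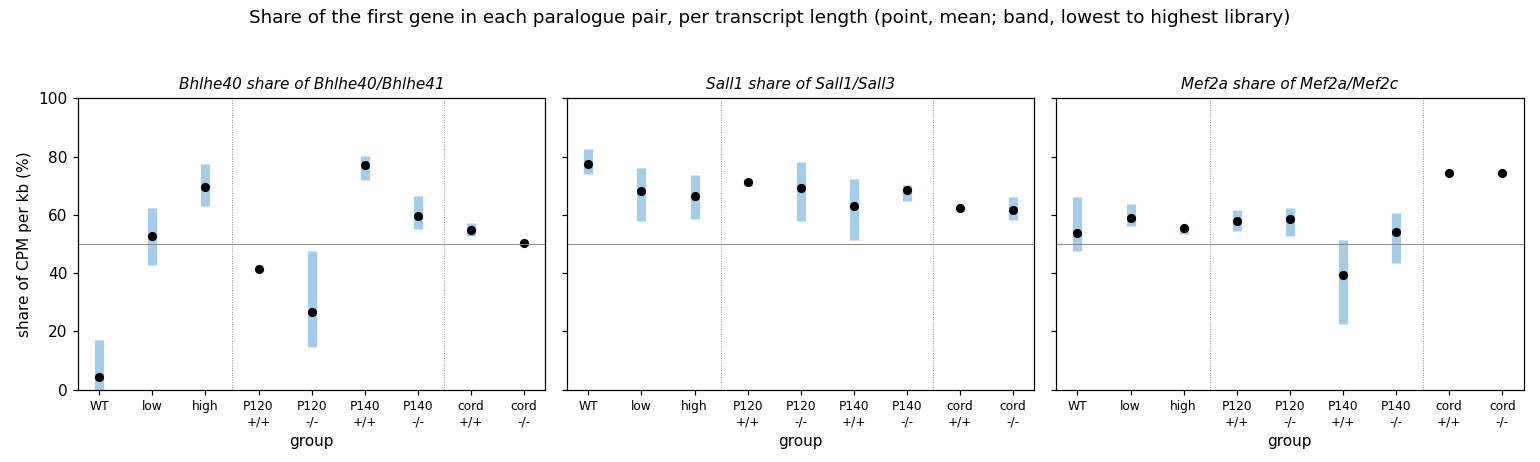
Share of Bhlhe40, Sall1 and Mef2a in their paralogue pairs, in percent of summed CPM per kb (vertical axis), by group; points are means and bands run from the lowest to the highest library. Bhlhe40 runs from 4.24% in WT to 69.6% in the high fraction and from 41.4% to 77.3% between P120 and P140 with LAG-3.

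Genes whose levels ran most like each factor were ranked by the lower of its Pearson correlations over the 14 libraries of the sort and the 12 of the stage table, among 8355 genes with a mean of at least 10 CPM in both. Libraries of a group share condition and depth, so these values describe the tables only. Bhlhe40 ran most like Rftn1 (0.92 and 0.92) and Gpnmb (0.90 and 0.90), a transmembrane glycoprotein of disease-associated microglia. Sall1 ran most like Tanc2 (0.96 and 0.89) and Kctd12 (0.88 and 0.89), and Sall3 like Tanc2 (0.89 and 0.95) and Gpr165 (0.84 and 0.87), so that the SALL pair had the same first gene. Irf8 ran most like Clptm1 (0.93 and 0.93) and Ehd4 (0.95 and 0.92), Spi1 like Nop56 (0.90 and 0.90) and Cdipt (0.90 and 0.92), and Runx1 like Specc1l (0.91 and 0.93) and Niban2 (0.90 and 0.94). For Mef2a these were Whrn (0.82 and 0.91) and Nfxl1 (0.87 and 0.78), for Mef2c Smap2 (0.79 and 0.83) and Pag1 (0.77 and 0.83), and for Bhlhe41 Syvn1 (0.83 and 0.88) and Srek1 (0.82 and 0.86). None of the 9 was among the 2 nearest genes of another.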

How the data were processed

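RNA of sorted microglia (SMART-seq mRNA HT LP kit, full-length cDNA) and of lumbar spinal cord (NEBNext Ultra II Directional kit) was sequenced in 32 libraries. The LAG-3-/- genotype came from crossing SOD1G93A mice with the line B6.129S6(Cg)-Lag3tm1Doi/J. The authors trimmed reads with Trim Galore 0.6.7, quantified them with Salmon 1.9.0 against GRCm39 and imported them with tximport in R 4.2.1, and deposited them as estimated counts by Ensembl gene, not normalized, in 3 tables; the annotation release is not given in the sources used here. Estimated counts depend on transcript length and on the amplification of cDNA.

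Here the estimated counts were rounded to whole numbers and named by GENCODE vM39 (71, 66 and 71 identifiers had no name, with 0.0479%, 0.0514% and 0.0145% of counts, and stayed in the fits). Each table was fitted on its own with all its groups in edgeR 4.0.16 under R 4.3.3 (filterByExpr with a minimum count of 10 and a total of 15, TMM, robust quasi-likelihood F-test, Benjamini-Hochberg over all genes tested). In the sort and in cord the call threshold was 0.1 for the adjusted p with a fold minimum of 1 on the log2 scale, after the study's methods. In the stage table, for which those methods state no threshold, 0.1 without a fold minimum was chosen here. CPM are TMM-scaled and CPM per kb use the canonical transcript. Levels in different tables were scaled apart and were not tested against each other.

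The named genes are the 9 factors, Lag3, the genes of each list with the 3 smallest adjusted p in a comparison, and for each factor the 2 genes most like it. The factors and lists were chosen with earlier results of these data known. Alternatives were DESeq2 1.42.0, RLE factors, library totals, no filter or a mean of 10 counts, sex or the replicate number as a term, fits of the groups compared alone, other thresholds, each library left out in turn, and offsets for canonical transcript length and GC content (natural splines with 5 degrees of freedom, fitted to log2 CPM with a prior count of 2). The splines were fitted with an intercept for each library, so these offsets also shift whole libraries and with them the median of all genes. Fold changes and adjusted p with offsets are taken from no change and not from that median. Genes of the lists are given without offsets. The fits were tested on simulated counts. No library was left out of the reported values, and no pair of libraries was identical. Totals of 9403475 to 49512632 counts per library set the precision.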

Additional observations from a re-analysis of the deposited data

Results flagged for a closer look

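Bhlhe40 in WT replicate 2 stood apart from the other libraries of its group: 8.63 CPM (99 counts) where replicates 1, 3 and 4 were listed at 0. It was the 1 value of 27 gene-by-group sets of 4 or 5 libraries in the sort whose gap to the nearest library exceeded Dixon's critical value. Chance passes that value in about 1 set of 20 when values vary continuously. Here replicates 1, 3 and 4 were tied at 0, so the gap equals the range. Any count above 0 in replicate 2 would have been flagged, and that rate does not apply. Groups of 3 libraries were not looked at in this way.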

How the results depend on the processing

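Offsets for length and GC content turned the sign of 24 of 81 values, 20 of them called neither before nor after. The other 4 were Sall3 (0.31), Irf8 (0.87) and Mef2c (0.58) from P120 to P140 with LAG-3, and Irf8 (-0.65) without LAG-3 at P140. Signs and calls were taken from no change. The offsets also moved the median of all genes, by 0.60 from P120 to P140 with LAG-3. Against WT they moved it by -0.74 in the low and -0.56 in the high fraction. With the offsets the number of the 9 genes called was 3, all higher, from P120 to P140 with LAG-3, 1, lower, without LAG-3 at P140, and 0 in cord. Without a fold minimum it was 5 in LAG-3-low against WT, 1 in LAG-3-high against LAG-3-low and 6 in cord. For LAG-3-/- against LAG-3+/+ microglia at P140, 3 in the reported fit, it was 5 with DESeq2, 6 with library totals, and 0 with only the groups compared and at an adjusted p under 0.05. DESeq2 called 1 gene with stage in LAG-3-/- microglia, and only the groups compared gave 1 call, Bhlhe40, in LAG-3-high against LAG-3-low.

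With single libraries left out, the counts ran from 2 to 3 for LAG-3-low against WT, 4 to 5 for LAG-3-high against WT, 0 to 1 between these fractions (1 without WT replicate 2), 7 to 8 with stage in LAG-3+/+, 0 to 6 between genotypes at P140 (1 without P120 LAG-3+/+ replicate 1 or 3, P120 LAG-3-/- replicate 1 or P140 LAG-3+/+ replicate 3), 0 to 3 for the interaction (3 without LAG-3-/- P140 replicate 1) and 0 to 1 in cord (0 without LAG-3+/+ replicate 1). Without WT replicate 2 the fitted fold change of Bhlhe40 against WT, 3 libraries at 0, rose to 14.24 in LAG-3-low and 15.36 in LAG-3-high microglia, values that are no bound. The count stayed at 0 with stage in LAG-3-/- and between genotypes at P120. DESeq2 gave Bhlhe40 no adjusted p in the sort. The cause of these changes was not tested.

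Same-numbered libraries deviated together little or not at all (correlations of deviations over genes between -0.12 and 0.07, all groups pooled). The 5 same-numbered pairs of low and high libraries ran from -0.0013 to 0.0674, with a mean of 0.032. Replicates 4 and 2 were highest, at 0.0674 and 0.0666. Differently numbered pairs of the sort ran from -0.045 to 0.043. This check does not settle whether same-numbered low and high libraries share mice, which the sources do not say. The replicate block took the calls between genotypes at P140 from 3 to 0 and changed no other call of the 9 genes. Sex as a term, no filter and a mean of 10 counts changed none, and RLE factors gained 1, Spi1 at P140. Library totals moved the median of all genes by -0.48 with stage in LAG-3+/+ and by -0.31 in LAG-3-high against WT. In 35 of 81 gene-by-comparison results, 77 of 1851 values changed sign where neither value was called.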
